A study of Mus musculus with 2 samples.

Results

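Notch receptors, their ligands, a receptor-modifying enzyme, an antagonist and direct target genes were followed through single cycling cells of the mouse corneal epithelium. The members are 10 named genes of the 31053 in the deposited matrix: the receptors Notch1, Notch2 and Notch3, the ligands Jag1, Jag2 and Dll1, the targets Hes1 and Hey1, the fringe enzyme Lfng and the antagonist Numb. They were chosen by name for their place in the pathway, and not by a measured value.

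The cells came from CycB1-GFP mice, a Cyclin B1 reporter line in which fluorescence marks cells in cycle, and all samples belong to a single group of that genotype, with no treatment and no unsorted or GFP-negative reference. Corneas were digested with Dispase, the epithelium was peeled and trypsinised, and live GFP-positive cells were sorted into 10x Genomics 3' libraries. The labels give 2 replicates, and the barcodes fall into 2 libraries, called library 1 and library 2 because their link to the replicate numbers is not given. Neither the age of the mice nor the number pooled per library nor the promoter of the reporter is stated in the labels. Each library is 1 sample. Except in fits that ignore the library, the p-values below cover only counting error and how unevenly differences between cell classes repeat in these libraries. That unevenness may be technical. With so few sums, the spread of each gene is drawn towards that of the other genes tested. A gene can thus pass although its own difference is uneven between the libraries.

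Of 6752 barcodes, 6188 cells were kept, each with 500 or more detected genes and less than 20% of its UMIs from mitochondrial genes. A UMI (unique molecular identifier) stands for 1 captured RNA molecule. Library 1 held 3187 kept cells with 18773893 UMIs (median 5571 per cell) and library 2 held 3001 cells with 17796678 UMIs (median 5886). Only 4 barcode sequences occurred among the kept cells of both. The summed level of 6 corneal epithelial markers was 23225 and 27611 CPM (the standard per-library scaling, here with the UMIs of all summed cells of a library as the total). Keratocyte markers had 5 and 2 UMIs in all, endothelial markers 5 and 3 with Cdh5, Kdr, Cldn5 and Emcn at 0, and mural markers 173 and 172. Of the 4 goblet markers Muc5ac, Spdef and Tff1 were at 0 and Agr2 had 288 and 507 UMIs (15.3 and 28.5 CPM). Immune markers summed to 14.1 and 41.1 CPM.

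Notch signalling passes between touching cells. A Jagged or Delta ligand on one cell binds a Notch receptor on its neighbour, the receptor is cut by ADAM proteases and then by gamma-secretase, and the freed intracellular domain enters the nucleus and joins the DNA-binding protein RBPJ and Mastermind co-activators to switch on Hes and Hey repressor genes. Fringe enzymes such as Lfng add sugars to the receptor that change which ligand activates it, and Numb, which is passed unequally to daughter cells in some divisions, lowers receptor activity. In stratified epithelia the pathway is known for its part in the commitment of basal cells to differentiation, and in the cornea Notch1 is known for a part in wound repair and in keeping the epithelium corneal.

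RBPJ, the DNA-binding partner of the cleaved receptor, recognises a core that reads TGGGAA on 1 strand and TTCCCA on the other, so the sequence before the start of each member was searched for it on both strands. RefSeq (GRCm38.p6) gave windows of 250 bases before a start for 8 of the 10 members, Numb and Dll1 with several starts, and Hes1 and Hey1 had no entry. The core was found for 1 of these 8 members, Lfng, and in 21.6% of all 32851 windows of the same length. The Lfng stretch (chr5:140607091-140607319, plus strand) is printed because it holds the match, shown in capitals at both places, whose first bases lie at -135 and -108 from the RefSeq start. The stretches of Notch3 (chr17:32166891-32167140, minus strand) and Notch1 (chr2:26503825-26504072, minus strand) are shown beside it because these receptors differed in opposite directions between cell classes. The Notch1 start used by RefSeq lies inside the longer gene annotated by GENCODE.
Lfng: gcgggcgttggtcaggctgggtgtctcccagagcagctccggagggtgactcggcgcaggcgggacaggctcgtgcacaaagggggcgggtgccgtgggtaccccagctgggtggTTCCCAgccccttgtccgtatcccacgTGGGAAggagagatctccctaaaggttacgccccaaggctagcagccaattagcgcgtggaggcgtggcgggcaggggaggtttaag
Notch3: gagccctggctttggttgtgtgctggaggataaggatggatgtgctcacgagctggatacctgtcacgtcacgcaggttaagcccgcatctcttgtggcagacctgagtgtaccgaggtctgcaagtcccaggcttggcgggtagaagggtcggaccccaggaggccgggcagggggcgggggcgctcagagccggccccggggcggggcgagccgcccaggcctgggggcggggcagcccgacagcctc
Notch1: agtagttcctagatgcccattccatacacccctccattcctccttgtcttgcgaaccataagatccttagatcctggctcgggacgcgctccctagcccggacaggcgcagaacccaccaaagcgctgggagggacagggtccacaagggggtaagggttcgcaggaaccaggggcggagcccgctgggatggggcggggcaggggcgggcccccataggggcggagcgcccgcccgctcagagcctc
A match is a description of these letters and not a binding site, and its absence says only that the letters are not in this window. The AP-1 letters TGANTCA, found in 6.75% of all windows, and the Krueppel-like factor letters CCACCC, found in 28.1%, were searched in the same way, and the first was found in a window of Dll1 and the second for Lfng, Jag2, Numb and Dll1.

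Hes1, a basic helix-loop-helix repressor and a common readout of the pathway, was the most abundant member with 5619 UMIs over all kept cells, or 154 CPM, and ranked 921 among 18059 detected genes. UMIs count 3' ends, so levels on this scale do not grow with gene length. Notch1 had 2953 UMIs (80.7 CPM) and led the receptors, ahead of Notch3 with 1390 (38.0 CPM) and Notch2 with 570 (15.6 CPM). Among the ligands Jag2 had 2913 UMIs (79.7 CPM), Jag1 2712 (74.2 CPM) and Dll1 842 (23.0 CPM). Numb had 511 UMIs (14.0 CPM) and Lfng 376 (10.3 CPM).

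Hey1 had 6 UMIs in all and was the only member under 100, the limit set for calling a gene too sparse. It had 2 UMIs in library 1 and 4 in library 2 and did not pass the filter on low counts in any comparison. Lfng was too sparse for the comparison by proliferation RNA as drawn.

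The genes lie on GRCm38 (GENCODE M21) at chr2:26457903-26516663 for Notch1, chr3:98013527-98150361 for Notch2 and chr17:32120820-32166852 for Notch3. The ligands are at chr2:137081456-137116644 (Jag1), chr12:112907819-112929776 (Jag2) and chr17:15367354-15376872 (Dll1). Hes1 is at chr16:30064384-30067796, Hey1 at chr3:8663359-8667256, Lfng at chr5:140607320-140615545 and Numb at chr12:83794034-83921934. Notch2, Hes1 and Lfng lie on the plus strand and the others on the minus strand. Notch3 overlaps the antisense gene Gm17276, which had 1 UMI, and Dll1 overlaps A930024N18Rik on the other strand, which had 16.

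Cells were classed by the share of Krt12 in their Krt12+Krt15 UMIs, for cells with at least 5 of them. The share was used to set limbal-type beside corneal-type cells, the limbus being the border zone that holds corneal stem cells. Position in the tissue was not measured. Krt12 is the keratin of the corneal epithelium, and Krt15 is found in basal limbal and conjunctival cells. The Krt12-low class (share under 0.4) held 663 and 959 cells in libraries 1 and 2, the middle class (0.4 to 0.8) 161 and 164, and the Krt12-high class (above 0.8) 2304 and 1821. Median depth was 5002 and 5096 UMIs in Krt12-low cells, 6431 and 5965 in middle cells, and 5784.5 and 6375 in Krt12-high cells. Summed limbal markers, Krt15 among them, were 17447 and 20442 CPM in Krt12-low cells and 7773 and 4246 CPM in Krt12-high cells.

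Krt12-high cells had more RNA for Notch3, for all 3 ligands and for Lfng than Krt12-low cells, and less for Notch1, Notch2 and Hes1. This holds for the Krt12-low class as a whole, which also held cells with conjunctival keratins and is split below. In edgeR's quasi-likelihood test on UMIs summed per library and class, with library as a block, 5 of the 9 members tested were higher and 3 lower at an adjusted p under 0.05, and Numb passed in neither direction. Of all 11140 genes tested, 32.5% were called, 15.6% higher and 16.9% lower. The median log2 fold change was 0.42 over the 9 members and 0.0055 over all genes. DESeq2 and edgeR without the block each called only Notch1 and Dll1 among the members. With all 3 classes matched on depth, which kept 154 and 159 cells of each class, only Jag2 and Notch2 were called. In that fit Notch1 came to -0.31 (edgeR adjusted p 0.202), Dll1 to 0.63 (adjusted p 0.313), Notch3 to 0.17 (adjusted p 0.748) and Jag1 to 0.18 (adjusted p 0.621). A match of Krt12-low and Krt12-high cells only, added after the data had been seen, kept 663 and 792 cells of each of these classes. In edgeR, Notch1, Notch3, Jag1, Jag2, Dll1, Hes1 and Lfng passed in it and Notch2 did not.

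**Figure D1:**
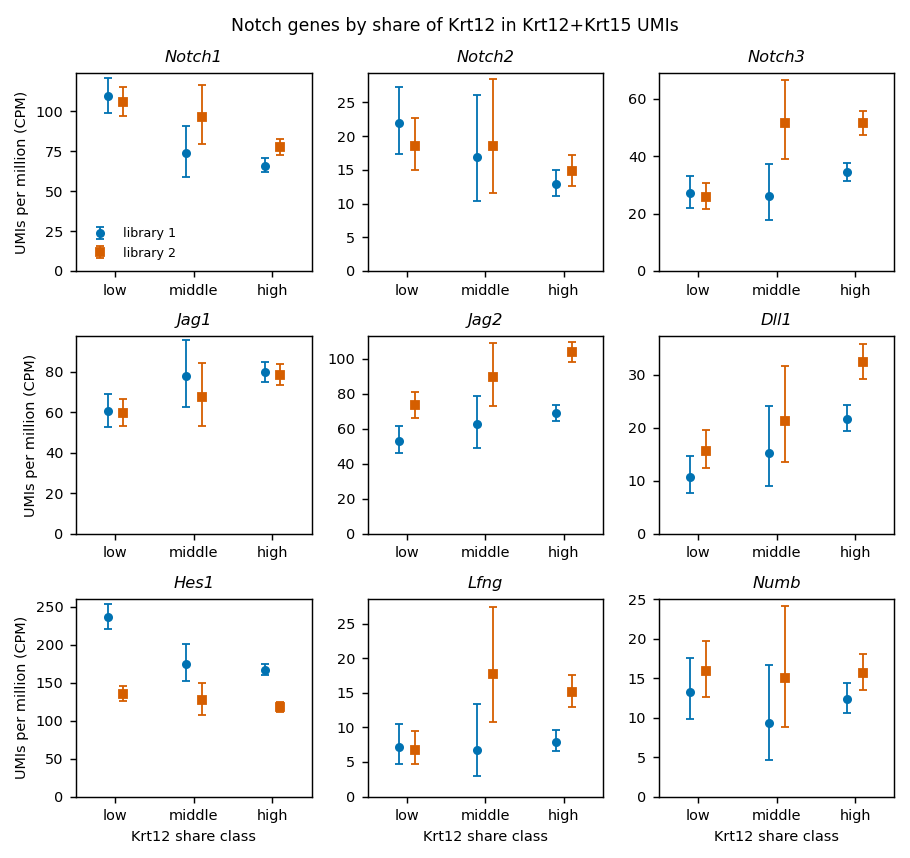
Level of each member except Hey1 in CPM (vertical axes, linear from 0) in Krt12-low, middle and Krt12-high cells (horizontal axes). There is 1 point per library and class, with bars for the exact Poisson 95% interval, which covers counting error only. Notch1 stands highest in Krt12-low cells of both libraries, and Dll1 stands highest in Krt12-high cells.

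Notch1, the main receptor of these cells, stood at 109 CPM in Krt12-low, 73.6 in middle and 66.1 in Krt12-high cells of library 1. In library 2 it stood at 106, 96.5 and 77.4 CPM. Every Krt12-low value lay above every Krt12-high value, also across libraries. The log2 fold change from low to high was -0.56 (SE 0.10, edgeR adjusted p 8.5e-05), at -0.69 in library 1 and -0.44 in library 2.

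Notch2, a receptor with a broader tissue range, had low counts: 21.9, 16.9 and 12.9 CPM from low to high in library 1 and 18.5, 18.6 and 14.8 CPM in library 2. Both Krt12-low values lay above both Krt12-high values. The log2 fold change was -0.51 (SE 0.18, edgeR adjusted p 0.0262), and it did not pass when Krt12-low and Krt12-high cells were matched on depth (-0.40, edgeR adjusted p 0.145).

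Notch3, a receptor best known from mural cells of vessels and also found in epithelia, went the other way. Its values were 27.2, 26.2 and 34.4 CPM from low to high in library 1, and 25.6, 51.4 and 51.4 CPM in library 2. Middle cells thus stood near the low class in library 1 and at the high class in library 2. From low to high the log2 fold change was 0.72 (SE 0.16, edgeR adjusted p 0.00129), at 0.38 in library 1 and 1.01 in library 2. The 5 mural markers summed to 18.8 and 13.9 CPM in Krt12-low cells and to 6.86 and 8.14 CPM in Krt12-high cells, with the defining genes Rgs5 and Pdgfrb at 0 in every kept cell. Their part in the Notch3 difference was not tested.

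Dll1, a Delta-type ligand, showed the largest fold of the members. It stood at 10.8, 15.2 and 21.7 CPM from low to high in library 1 and at 15.7, 21.3 and 32.5 CPM in library 2. The order was the same in both libraries and the Krt12-low and Krt12-high values did not overlap. Its log2 fold change was 1.05 (SE 0.17, edgeR adjusted p 8.69e-06), with 1.05 and 1.06 in the libraries.

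Jag1, the Jagged ligand found most widely in epithelia, differed less and evenly: 60.4, 77.9 and 79.8 CPM in library 1, and 59.6, 67.3 and 78.5 CPM in library 2. The log2 fold change of 0.42 (SE 0.11, edgeR adjusted p 0.00282) was nearly the same in the libraries, at 0.44 and 0.41. Jag2, its paralogue, was at 53.2, 62.6 and 68.9 CPM in library 1 and 73.3, 89.5 and 104 CPM in library 2. Here the libraries stood apart and the Krt12-low value of library 2 lay above the Krt12-high value of library 1, but within each library Krt12-high cells had more. The log2 fold change of Jag2 was 0.47 (SE 0.11, edgeR adjusted p 0.000886).

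Hes1 was higher in Krt12-low cells. It stood at 237, 175 and 167 CPM from low to high in library 1 and at 136, 128 and 118 CPM in library 2, so every value of library 1 lay above every value of library 2. The log2 fold change from low to high was -0.33 (SE 0.092, edgeR adjusted p 0.00551), at -0.46 and -0.20 in the libraries. Summed immediate early genes, which respond to stress and dissociation, were 4027 and 1615 CPM in Krt12-low and 7601 and 3469 CPM in Krt12-high cells, and their part in the Hes1 levels was not tested. Hey1 had 2 UMIs in Krt12-low cells of each library, 0 in middle cells, and 0 and 2 in Krt12-high cells.

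Lfng had 26 and 34 UMIs in Krt12-low cells and 110 and 175 in Krt12-high cells. As levels these were 7.20 CPM in low and 7.94 CPM in high cells of library 1, and 6.76 and 15.2 CPM in library 2. The difference thus came mainly from library 2, with a log2 fold change of 0.18 in library 1, 1.17 in library 2 and 0.75 in the joint fit (SE 0.26, edgeR adjusted p 0.0286). Numb was level across the classes, at 13.3 and 12.3 CPM in low and high cells of library 1 and 15.9 and 15.7 CPM in library 2. Its log2 fold change was -0.03 (SE 0.19, edgeR adjusted p 0.926).

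**Figure D2:**
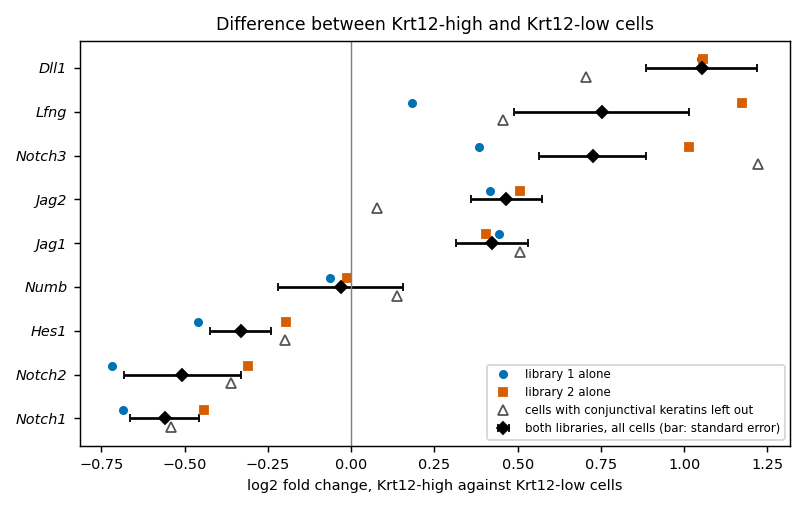
Log2 fold change of the 9 tested members between Krt12-high and Krt12-low cells (horizontal axis), with the joint edgeR estimate and its standard error as a bar the value of each library as a separate point, and the fit without conjunctival keratin cells as an open triangle. Dll1 lies near 1.05 in both libraries, while Lfng (0.18 and 1.17) and Notch3 (0.38 and 1.01) differ most between libraries.

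Middle cells lay between the ends in both libraries for Notch1, Jag1, Jag2, Dll1 and Hes1, and no member was called against either end. Against Krt12-low cells 0 of 9 members passed in edgeR, where 5.57% of all genes did. At an unadjusted p under 0.05 there were 4 members (Notch1, Notch3, Hes1 and Lfng) and 16.5% of all genes. Between Krt12-high and middle cells 0 of 9 passed in edgeR, where 7.06% of all genes did. At an unadjusted p under 0.05 there were 18.3% of all genes and 1 member, Dll1 (log2 fold change 0.59, SE 0.22, edgeR adjusted p 0.125). DESeq2 also called 0 members in both.

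The Krt12-low class carried conjunctival as well as limbal markers. Summed conjunctival markers were 1264 and 2389 CPM in it, against 135 and 131 CPM in Krt12-high cells. The class was therefore split, after the data had been seen and as a description with no test, into cells with a UMI for the limbal hormone subunit Gpha2 and under 5 UMIs of Krt4+Krt13+Krt19 (415 and 594 cells), and cells with 5 or more of these conjunctival keratins (148 and 302 cells). The remaining 100 and 63 cells had neither. Median depth was 4726 and 4776 UMIs in the Gpha2 cells and 6412.5 and 6132 in the conjunctival keratin cells. It was 4701.5 and 2174 UMIs in the cells with neither.

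Jag2 stood at 77.2 and 106 CPM in the Gpha2 cells and at 12.0 and 31.6 CPM in the conjunctival keratin cells, with no overlap between the subsets. Dll1 stood at 14.0 and 20.3 CPM in the Gpha2 cells. In the conjunctival keratin cells Dll1 had 0 UMIs in library 1, which allows up to 3.00 CPM, and 9.54 CPM in library 2. Both ligands were thus lower in the conjunctival keratin cells than in the Gpha2 cells of either library. The cells with neither had 31.9 and 21.4 CPM of Jag2 on 15 and 4 UMIs, nearer to the conjunctival keratin cells, and 19.1 and 10.7 CPM of Dll1 on 9 and 2 UMIs.

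Notch3 had the opposite order, with 18.7 and 13.7 CPM in the Gpha2 cells and 42.9 and 41.2 CPM in the conjunctival keratin cells. The cells with neither had 31.9 and 42.9 CPM of Notch3 on 15 and 8 UMIs. In library 1 their Poisson 95% interval of 17.8 to 52.5 CPM held the values of both other subsets. In library 2 they stood nearer to the conjunctival keratin cells. Hes1 was at 211 and 117 CPM in the Gpha2 cells and 274 and 161 CPM in the conjunctival keratin cells, higher in the latter within each library. Notch1 was at 103 and 101 CPM against 113 and 108 CPM, and Jag1 at 57.1 and 53.9 CPM against 61.9 and 66.3 CPM. These were far closer between the subsets than Jag2 or Notch3. Surface differentiation markers, such as involucrin and the Sprr1 genes, also differed, at 729 and 559 CPM in the Gpha2 cells and 4405 and 2838 CPM in the conjunctival keratin cells, and their part in these differences was not tested.

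**Figure D3:**
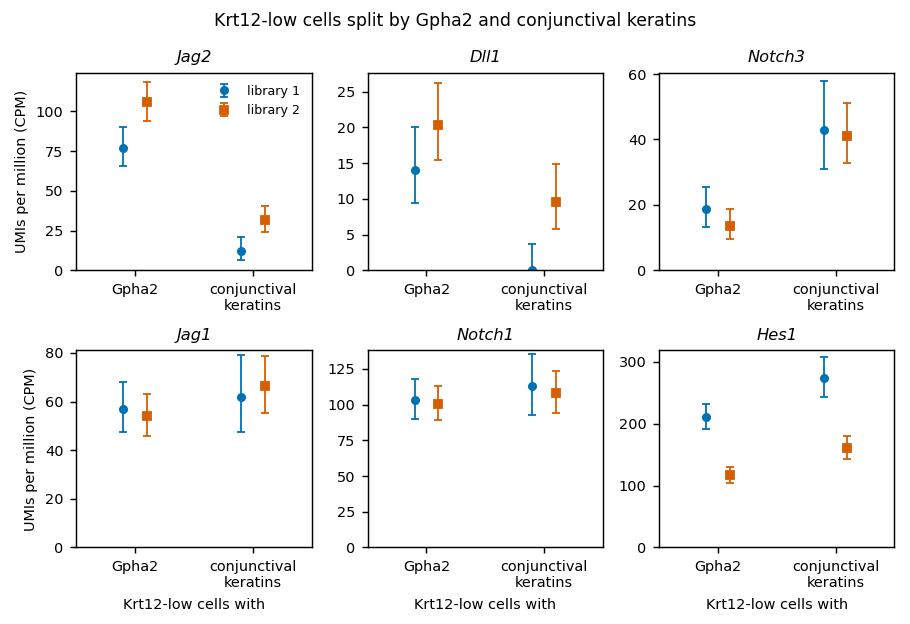
Levels in CPM (vertical axes, linear from 0) in Krt12-low cells with Gpha2 and in Krt12-low cells with conjunctival keratins (horizontal axes), 1 point per library, with bars for the exact Poisson 95% interval. Jag2 lies at 77.2 and 106 in the Gpha2 cells and at 12.0 and 31.6 in the conjunctival keratin cells, and Notch3 at 18.7 and 13.7 against 42.9 and 41.2.

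With all cells of 5 or more conjunctival keratin UMIs left out of every class, an alternative also added after the data had been seen, 4 members were called between Krt12-high and Krt12-low cells. Notch3 (log2 fold change 1.22, edgeR adjusted p 0.000888), Dll1 (0.71, adjusted p 0.00466), Jag1 (0.51, adjusted p 0.00383) and Notch1 (-0.54, adjusted p 0.00145) passed. Jag2 came to 0.08 (edgeR adjusted p 0.64), Hes1 to -0.20 (adjusted p 0.18), Notch2 to -0.36 (adjusted p 0.207) and Lfng to 0.45 (adjusted p 0.236). In this fit 3044 of 10508 genes were called. Set beside Krt12-high cells as raw levels, with no test, the Gpha2 cells had no less Jag2, at 77.2 and 106 CPM against 68.9 and 104. Lfng was at 9.83 and 9.11 CPM in the Gpha2 cells against 7.94 and 15.2, and Hes1 at 211 and 117 CPM against 167 and 118. Notch1, Notch2, Notch3, Jag1 and Dll1 kept the direction of the whole class in both libraries.

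Other genes of the pathway were counted from a list of 54, of which 38 had enough counts. Between Krt12-high and Krt12-low cells 7 were higher and 8 lower, with a median log2 fold change of -0.06. The 6 with the largest change among those past the threshold are named. Dtx4, a Deltex-type ubiquitin ligase, had a log2 fold change of -1.92 (edgeR adjusted p 1.45e-05), the non-canonical ligand Dlk2 -1.85 (adjusted p 0.0113), and Neurl1b, a ubiquitin ligase that helps ligands be taken up, -1.41 (adjusted p 1.98e-05). Hes6, a Hes family member that can oppose Hes1, had -0.90 (edgeR adjusted p 9.88e-05). Fbxw7, the ubiquitin ligase subunit that marks the Notch intracellular domain for breakdown, had 0.94 (adjusted p 1.48e-06), and the repressor Bhlhe40 had 0.87 (adjusted p 0.0121).

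Each of these 6 had the same sign in both libraries. The alternatives were read gene by gene for the members only, and the part of conjunctival keratin cells in these 6 differences was not tested. Against middle cells 3 of the 38 were lower in Krt12-high cells, Neurl1b (log2 fold change -1.34, edgeR adjusted p 0.00968), Mib1 (-0.65, adjusted p 0.0376) and Ctbp1 (-0.44, adjusted p 0.027), and 0 of 38 were called between middle and Krt12-low cells. The remaining receptor Notch4 had 3 UMIs over all kept cells, and the ligand Dll4 had 0. Of the other targets Hes5 and Hey2 had 1 UMI each and Heyl 0, while Nrarp, a feedback inhibitor induced by the pathway, had 1425.

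The sort selects cycling cells, but some carried no RNA of Mki67 or Top2a, both markers of proliferation. Of the kept cells 193 and 231 had 0 UMIs of these genes, 706 and 525 had 1 to 4, and 2288 and 2245 had 5 or more. Since cells with 0 were shallow, cells of 0 and of 5 or more were drawn in equal numbers from bins of total UMIs, which left 191 of each in library 1 and 204 of each in library 2. In the edgeR fit on these sums 18.8% of 7471 genes were called, 8.79% higher and 9.97% lower in cells with 5 or more. Of the 8 members tested 1 was higher and 0 lower.

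The member called was Jag2. In library 1 it had 29 UMIs (41.8 CPM) in cells with 0 and 66 UMIs (95.5 CPM) in cells with 5 or more proliferation UMIs. In library 2 it had 54 UMIs (66.0 CPM) and 97 UMIs (118 CPM). The groups did not overlap across libraries. The log2 fold change was 0.84 (SE 0.23, edgeR adjusted p 0.00317), at 1.04 and 0.70 in the libraries.

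Jag2 also passed when the cells were matched on Krt12 class (0.77, edgeR adjusted p 0.013), but not with DESeq2 (adjusted p 0.647), without the block (edgeR adjusted p 0.0983) or without the match on depth (log2 fold change 0.47, edgeR adjusted p 0.0815). Surface differentiation markers were 5868 and 4451 CPM in cells with 0 and 1262 and 793 CPM in cells with 5 or more, and conjunctival markers were 2039 and 3755 CPM against 287 and 697 CPM. Their part in the Jag2 difference was not tested.

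Numb, the antagonist, had 13 and 18 UMIs in cells with 0 and 7 and 8 UMIs in cells with 5 or more. The groups did not overlap, but with these counts the log2 fold change of -1.18 (SE 0.49, edgeR adjusted p 0.0735) did not pass. It passed only when cells were also matched on Krt12 class (-1.70, edgeR adjusted p 0.00665). The receptors Notch2 and Notch3 had log2 fold changes of -0.67 and -0.58, Dll1 -0.58, Jag1 -0.34, Hes1 -0.25 and Notch1 0.18, none of them past the threshold, with edgeR adjusted p from 0.203 to 0.678. Without the match on depth Hes1 (-0.45, edgeR adjusted p 0.014) and Jag1 (-0.46, adjusted p 0.048) were lower in cells with 5 or more.

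Lfng had 3 and 4 UMIs in cells with 0 and 6 in cells with 5 or more of each library, too few to be tested. It entered the test under some alternatives, and was higher with the match on Krt12 class (log2 fold change 1.87, edgeR adjusted p 0.0149) and with a minimum of 10 Mki67+Top2a UMIs (2.18, adjusted p 0.0037). Without the match on depth it came to 1.21 (edgeR adjusted p 0.107). These values rest on at most 4 UMIs per library in cells with 0.

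**Figure D4:**
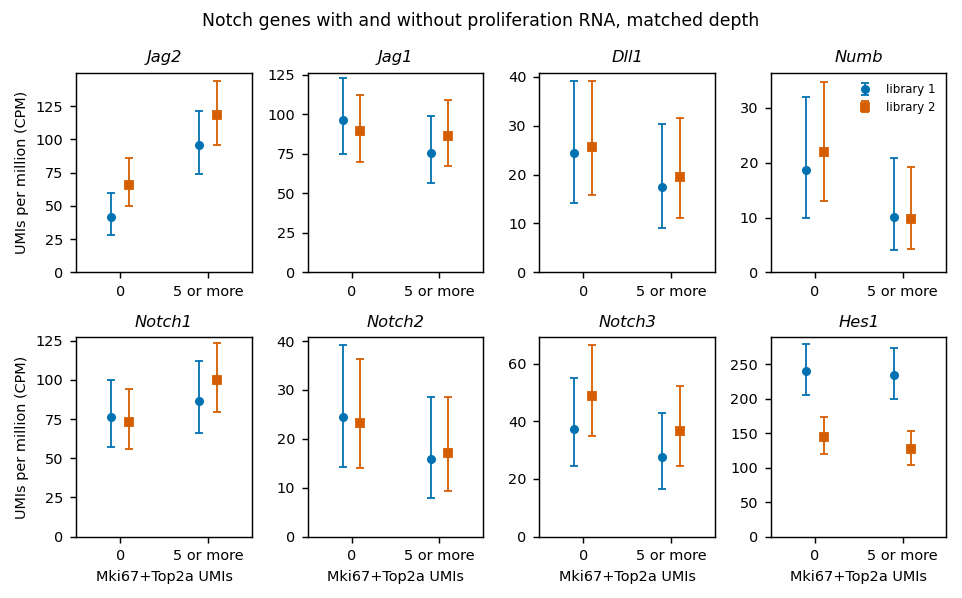
Levels in CPM (vertical axes, linear from 0) in cells with 0 and with 5 or more Mki67+Top2a UMIs, drawn to equal depth (horizontal axes), 1 point per library, with bars for the exact Poisson 95% interval. Jag2 goes from 41.8 and 66.0 to 95.5 and 118, and Numb from 13 and 18 UMIs to 7 and 8.

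Of the pathway list 28 genes were tested in this comparison, with 0 higher and 3 lower. Aph1a, a subunit of gamma-secretase, had a log2 fold change of -0.98 (edgeR adjusted p 0.00216), Nrarp -0.98 (adjusted p 0.0121) and Aak1, a kinase of the endocytic machinery, -0.95 (adjusted p 0.0121).

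The study's title places Sox9, a transcription factor, in limbal stem cells, so the members were set side by side in cells that held a Sox9 UMI and cells that held none, 1297 of each in library 1 and 1035 of each in library 2 at matched depth. Of 11437 genes 6.46% were called, 3.58% higher and 2.88% lower, and 2 of the 9 members tested were higher in cells with Sox9. Notch1 was at 83.6 CPM with and 65.9 CPM without Sox9 in library 1, and at 91.6 and 79.9 CPM in library 2. Its log2 fold change was 0.25 (SE 0.067, edgeR adjusted p 0.00625).

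Hes1 was at 199 and 162 CPM with and without Sox9 in library 1 and at 124 and 119 CPM in library 2. Its log2 fold change was 0.18 (SE 0.054, edgeR adjusted p 0.0211), at 0.28 in library 1 and only 0.04 in library 2. Krt12-low cells made up 32.2% of the cells with Sox9 and 14.5% of those without in library 1, and 41.5% and 26.2% in library 2. When cells were matched on Krt12 class too, Notch1 came to 0.10 (edgeR adjusted p 0.714) and Hes1 to 0.14 (adjusted p 0.29), and 0 members were called. DESeq2 and the fit without the block also called 0. Of the pathway list 0 of 38 tested genes were called.

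The libraries themselves were compared without a test, as 1 sample each. Hes1 came to 183 CPM in library 1 against 123 CPM in library 2, a log2 ratio of 0.57, and was higher in library 1 in each class (0.81 in low, 0.46 in middle and 0.51 in high cells). Immediate early genes summed to 6726 and 2888 CPM, and their part in the Hes1 difference was not tested. Jag2 was lower in library 1, at 65.5 against 94.6 CPM, as were Notch3 (32.3 against 44.0), Dll1 (19.3 against 26.9), Lfng (7.72 against 13.0) and Notch1 (75.1 against 86.8). For these 6 members the Poisson 95% intervals of the libraries lay apart, and for the other 4 they met. Jag2 and Dll1 were lower in library 1 in each class. In Krt12-low cells Notch1 (109 against 106 CPM), Notch3 (27.2 against 25.6) and Lfng (7.20 against 6.76) were not lower in library 1.

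Whether ligand and receptor RNA lay in the same cells was described in Krt12-high cells thinned to 2000 UMIs each, 2039 in library 1 and 1622 in library 2. For each of 13 pairs the number of cells with both was set against the product of the 2 shares. Notch3 and Jag2 met in 9 cells of library 1 against a product of 16.9, and in 19 cells of library 2 against 32.0, ratios of 0.53 and 0.59. Jag2 and Dll1 met in 18 cells against 11.0 and in 32 cells against 20.1, ratios of 1.63 and 1.59.

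The count for both ligands thus lay above the product, and that for Notch3 with Jag2 below it, in both libraries. Notch3 and Dll1 met in 5 cells against 5.94 in library 1 and 3 against 10.8 in library 2. The other 10 pairs had ratios from 0.75 to 1.34, and of these only Notch1 with Notch3 was above 1.1 in both libraries. In Krt12-low cells these counts were small. There Jag2 and Dll1 met in 3 cells of each library, with ratios of 2.82 and 0.71 that did not repeat. Notch3 and Jag2 met there in 2 cells of library 1 and 1 of library 2, ratios of 0.67 and 0.20. As a background, 24 cells with 5 or more immune marker UMIs, thinned alike, held 3 with a Jag2 UMI (12.5%), 1 with Dll1 (4.17%) and 0 with Notch3, which allows a share of up to 12.5%. In the thinned Krt12-high cells the shares of libraries 1 and 2 were 12.4% and 19.2% for Jag2, 4.36% and 6.48% for Dll1, and 6.67% and 10.3% for Notch3. At this depth the shares of library 1 were thus no higher than the background for Jag2, close to it for Dll1, and those of Notch3 lay under the limit, so the pairs are not read as expression in single cells. Before thinning these were 33 cells with a median of 3598 UMIs, of which 17 also held enough Krt12+Krt15 UMIs to be classed. Of the 24 thinned cells 3 came from library 1, with 0 holding a UMI of Jag2, Dll1 or Notch3, and 21 from library 2. Library 1 was thus set against cells mostly of library 2, and the background is weak. Doublets were not removed.

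**Figure D5:**
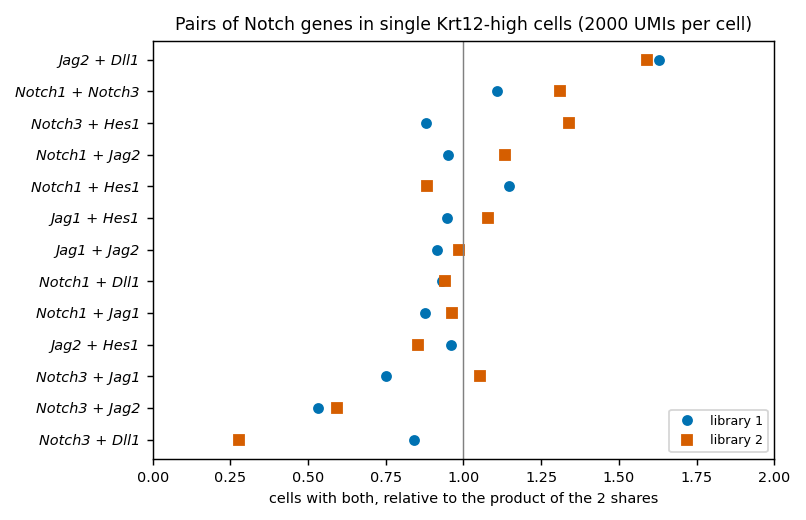
Number of Krt12-high cells with UMIs of both genes of a pair, relative to the product of the 2 shares (horizontal axis, 1 marks equality), for 13 pairs (vertical axis) and each library as a point. Jag2 with Dll1 lies at 1.63 and 1.59 and Notch3 with Jag2 at 0.53 and 0.59.

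To give the same relation as levels, Krt12-high cells with a Jag2 UMI were set beside as many without one at matched depth, 690 in library 1 and 698 in library 2, a split chosen after the pairs had been seen. Notch3 was at 24.2 CPM with and 35.3 CPM without Jag2 in library 1, and at 41.9 and 54.6 CPM in library 2. Dll1 was at 26.6 and 21.3 CPM, and at 36.8 and 28.0 CPM. Lfng had 54 and 24 UMIs, and 98 and 53 UMIs.

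In both libraries the summed levels in cells with a Jag2 UMI were thus lower for Notch3 and higher for Dll1 and Lfng. The Poisson 95% intervals met for Dll1 in both libraries and for Notch3 in library 2. Notch1 went in opposite directions, at 57.0 and 69.7 CPM in library 1 and 79.0 and 66.9 CPM in library 2. Hes1 was at 151 and 155 CPM, and at 104 and 132 CPM. Surface differentiation markers were lower with Jag2, at 1346 against 2734 CPM in library 1 and 401 against 1386 CPM in library 2, and their part was not tested. Split by a Notch3 UMI instead (389 and 445 cells of each kind), these markers were higher with Notch3, at 3371 against 2317 CPM and 1127 against 1010 CPM.

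Genes whose pattern was most like that of the 4 most abundant members were sought among 2835 genes over 18 sums of cells (library, Krt12 class and proliferation RNA), with library means removed. The sums share libraries and differ in depth, so the Pearson r is a description. Closest to Hes1 were Pls3, an actin-bundling protein (r = 0.81), Pcmtd1 (0.80) and the cytoskeletal linker Macf1 (0.79). Closest to Notch1 were the respiratory chain subunit Cox6c (0.87), Cnn2 (0.84) and Ssr4 (0.83). Among those closest to Jag2 were Dnajc15 (0.84) and Birc6 (0.83), and Jag1 was closest to Mark3 (0.81), Car5b (0.80) and Tbcb (0.80).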

How the data were processed

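Single-cell RNA was measured in 2 libraries of sorted corneal epithelial cells. The authors deposited whole-number UMI counts per gene and barcode in 1 aggregated matrix, written by 10x software 3.1.0 per the file headers. The submitters' processing notes name Cell Ranger 3.1.0, Seurat 5.0.0 and the build GRCm38 (mm10). Whether depth was equalised at aggregation, and how cells were called, is not given in the sources used here.

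Cells with at least 500 genes and under 20% mitochondrial UMIs were kept. Doublets were not called. For each library and class the UMIs of its cells were added up, and these sums went into edgeR 4.0.16 in R 4.3.3 (quasi-likelihood, robust, TMM, filterByExpr, Benjamini-Hochberg over all genes tested, threshold 0.05). Library entered as a block: sums that share a library share a sample, and the pairing comes from this alone. Residual degrees of freedom were 2 for the Krt12 classes and 1 for the other fits. Depth was matched in bins of 0.25 in log2 total UMIs. Intervals are exact Poisson 95% intervals, and the limit for a count of 0 is 3 counts. Levels are raw CPM, and the fold changes come from the fit.

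Of 200 genes given a log2 change of 1 in simulated data, the fit on Krt12 classes recovered 93% (10975 genes). The proliferation fit recovered 89.5% (7423 genes) and the Sox9 fit 95% (11420 genes). The simulated sums had a set spread and no difference between libraries, unlike the data. Changes were given only to genes with 200 or more UMIs over the sums. The recovery thus does not cover genes with fewer counts, such as Numb, Notch2 and Dll1 in the proliferation fit.

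All 10 members are named. Of the 54 other pathway genes, those past the threshold are named, at most 6 per comparison by absolute log2 fold change, and for likeness the 3 genes with the highest r on log2(CPM + 10) among those with a mean of at least 50 CPM. One of these genes is not reported here. The members, lists and rules were chosen with earlier results of these data known. The alternatives were another test (DESeq2 1.42.0), scaling, count and cell filters, class limits, matching, no block and single libraries. Leaving out conjunctival keratin cells, matching only Krt12-low and Krt12-high cells on depth, and the splits by Gpha2, Jag2 and Notch3 were added after the data had been seen.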

Additional observations from a re-analysis of the deposited data

How the results depend on the processing

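Between Krt12-high and Krt12-low cells 8 members were called. The number was 2 with DESeq2, 2 with edgeR without the replicate block, 2 with all 3 classes matched on depth and 4 without conjunctival keratin cells. Notch1 and Dll1 passed in 12 of 13 alternatives, the exception being the 3-class match (-0.31 and 0.63), Jag1, Jag2 and Notch3 in 10, and Hes1, Lfng and Notch2 in 9. No called member changed sign in this comparison in any of the 13. Genes called, 3625, came to 1777 with DESeq2, 1568 with the 3-class match and 1553 without the block. For middle against low (0 members, 621 genes) the class limits 0.3 and 0.9 gave 1 member, Dll1, and 1031 genes, DESeq2 309 genes and no block 53. For high against middle (0 members, 787 genes) these limits gave 1 member, Notch1, DESeq2 404 genes, the 3-class match 486 and no block 77.

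For proliferation RNA (1 member, 1402 genes) DESeq2 called 0 members and 321 genes, and no block 0 members and 560 genes. Matching on Krt12 class too gave 3 members (Jag2, Numb and Lfng), a minimum of 10 Mki67+Top2a UMIs 2 (Jag2 and Lfng), and no match on depth 2 (Jag1 and Hes1). In these fits 7367, 7014 and 11627 genes were tested. Where a count of members in this section stands without the number of genes called, it is not read as a result about the members. Without the deepest 5% of cells, where doublets would gather, 910 genes were called. For Sox9 (2 members, 739 genes) DESeq2 gave 0 members and 64 genes, no block 0 and 1, and the match on Krt12 class 0 and 173. No match on depth gave 0 members, and 1 member was called with 1000 or more genes per cell, with under 10% mitochondrial UMIs, with 2 or more Sox9 UMIs, without the deepest cells and with another random draw. The cause was not tested for these settings. Matching also leaves smaller numbers of cells, and their part was not tested either.

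Signs changed only for log2 fold changes that were not called. Numb between high and low was 0.10 with low and high matched, 0.14 without conjunctival keratin cells, 0.0093 without the deepest cells and 0.023 in cells with 5 or more Mki67+Top2a UMIs. Notch2 between middle and low was 0.034 without conjunctival keratin cells. Between high and middle, Jag2 was -0.010 and Hes1 0.0087 without conjunctival keratin cells, Hes1 was 0.0046 without the deepest cells, Lfng 0.049 with the 3-class match and 0.090 with low and high matched, and Numb -0.051 with the 3-class match. By proliferation RNA, Notch1 was -0.064 without the match on depth, Dll1 0.0052 with the match on Krt12 class, 0.0055 and Hes1 0.053 with the minimum of 10, and Dll1 0.47 under 10% mitochondrial UMIs and 0.22 with another draw. By Sox9, 2 or more UMIs gave Notch3 -0.068, Jag1 -0.021, Dll1 0.066 and Numb -0.039, and no match on depth gave Jag1 -0.017 and Lfng -0.077. The match on Krt12 class gave Jag2 0.070, Dll1 0.0054 and Numb -0.11, 1000 or more genes Lfng -0.045 and Numb -0.049, under 10% mitochondrial UMIs Lfng -0.051, no deepest cells Numb -0.089, and another draw Lfng -0.055 and Numb -0.14. Values of single libraries stand in the report. Counts of 7 to 21 UMIs per sum limit Numb, Dll1 and Notch2 in the proliferation comparison, where Hey1 could not be tested and Lfng only under some alternatives.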

Other observations

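Within the Krt12 classes, the members were also read over 11 finer bins of the Krt12 share. Cells with a share under 0.05 (326 and 691 cells) had 113 and 103 CPM of Notch1, and cells with no Krt15 UMI (1532 and 1256 cells) had 62.6 and 71.9 CPM. The highest Notch1 value of both libraries lay in the bin from 0.05 to 0.1, at 137 and 121 CPM, on 110 and 129 cells. Dll1 was at 8.47 and 15.1 CPM under 0.05 and at 21.7 and 32.3 CPM in cells with no Krt15 UMI. Notch3 was at 25.4 and 26.4 CPM under 0.05 and at 35.2 and 54.0 CPM in cells with no Krt15 UMI.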
